A study of Homo sapiens with 18 samples.

Results

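Transcripts of the epidermal growth factor (EGF) receptor family, its ligands and 1 intracellular inhibitor were followed in OVCAR3 cells, a long-established line from a human serous ovarian carcinoma of high grade, after 24 h with antibodies. The members were chosen by gene name, 10 of the 55765 genes listed in each of 2 tables of read counts. They are the receptors EGFR, ERBB2 and ERBB3, the ligands AREG, EREG, HBEGF, TGFA, BTC and EPGN, and ERRFI1. The first table held cells given natural human IgA of no chosen specificity, cells given natural human IgG, and untreated cells. The second held cells given IgA against BDNF, cells given IgA against TSPAN7, and a further set of untreated cells. Antibodies were used at 0.5 µg/ml in RPMI with 2% fetal bovine serum, which the untreated cells also received, and each of the 6 groups had 3 libraries. All values come from 1 cell line in culture, and groups were tested against each other within a table only.

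EGF family ligands are made as membrane-anchored precursors that metalloproteinases cut free, so that a cell can signal to itself and to its neighbours. Ligand binding pairs the receptors and switches on their tyrosine kinases. EGFR binds all 6 ligands studied here, ERBB2 has no known ligand and acts as the preferred partner of the others, and ERBB3 has little kinase activity of its own and couples well to PI3-kinase. ERRFI1, also called MIG6, binds the kinase domain of EGFR and ERBB2 and shuts it down, and its gene is induced by the signal that it ends. ERBB2 is a therapeutic target in several carcinomas, and AREG, EREG and HBEGF are ligands that epithelial tumours often secrete.

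Between 27920733 and 42371474 counts were listed per library in the first table, and between 39254350 and 47381836 in the second. One library stood apart. In IgA replicate 3 the mitochondrial genome supplied 19.1% of counts, against 5.75% to 8.32% in the other 8 libraries of the first table. Tests of members and of listed pathway genes were therefore also run without it. Levels, summed counts, correlations and the values of other genes near members on chromosome 4 were computed with it included only. All 13 serous ovarian carcinoma markers examined (PAX8, WT1, MUC16 and others) had counts in every group. They also moved with the treatments: 6 were called lower and 2 higher with IgA against IgG (median log2 fold change -0.31) and against untreated cells (-0.30), and 0 were called for IgG. Of all tested genes, 11.6% were lower and 12.6% higher with IgA against IgG, 12.1% and 12.9% against untreated cells, and 0% either way for IgG. In the second table, 5 were higher and 0 lower for BDNF IgA against untreated cells, beside 4.49% and 3.18% of all genes. For TSPAN7 IgA, 3 were lower and 1 higher against untreated cells, beside 4.08% and 4.46% of all genes. Against BDNF IgA, 7 were lower and 1 higher, beside 4.5% and 3.42%. The part of these markers in the results below was not tested. Of 14 markers of leukocytes, fibroblasts and endothelium, 13 were listed, and apart from the collagens COL1A1 and COL1A2 their summed level was between 61.6 and 143.9 normalised counts in every library. In the IgA libraries the same list with both collagens summed to between 2527 and 4911 normalised counts, in IgG to between 2162 and 2382 and in untreated cells of that table to between 2298 and 2557; its part in the results was not tested either. The study's legends give the non-specific treatments as separate experiments, but the labels do not say that replicates of either table were separate cultures, so p-values measure the spread between these libraries, part of which may be technical. In bulk RNA, fewer cells making a transcript and less of it per cell cannot be told apart.

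Levels were compared between genes as RPKM, read counts scaled to the depth of a library and to exon length. ERBB2 had the highest level of the 10 members in every group, at 74.8 ± 1.26 RPKM (SD, n = 3) in untreated cells of the first table and 266.8 ± 1.26 in those of the second. The tables were scaled separately, so these levels stand side by side without a test. EGFR was next in untreated cells, at 13.4 ± 0.932 RPKM in the first table and 12.1 ± 0.0858 in the second. ERRFI1 (12.9 ± 1.35), ERBB3 (9.31 to 10.9) and the ligand BTC (9.04 ± 0.683 RPKM) followed in untreated cells of the first table, where EGFR overlapped ERRFI1 and ERBB3 overlapped BTC over the 3 libraries.

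Ligands covered a wide range. In untreated cells of the first table BTC was the most abundant, TGFA was at 2.90 ± 0.351 RPKM, HBEGF at 1.41 ± 0.198, EREG at 0.222 ± 0.0395, AREG at 0.0663 ± 0.0997 and EPGN at 0.00231 ± 0.00400 RPKM. EREG overlapped AREG there, and AREG overlapped EPGN, so the order of the 3 lowest was not resolved. In untreated cells of the second table TGFA (7.69 ± 0.137 RPKM) was above BTC (6.46 ± 0.122) with no overlap. With IgA, ERRFI1 was second at 34.1 ± 2.90 RPKM, between ERBB2 and EGFR (12.7 ± 0.495), and TGFA at 10.2 ± 1.44 overlapped BTC at 8.51 ± 1.13. The place of AREG in these orders rests on counts that leave out reads shared with a copy of the gene, described next. These orders depend on the length used: with the longest transcript in place of all annotated exons, ERBB3 stood above ERRFI1 in both sets of untreated cells.

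**Figure D1:**
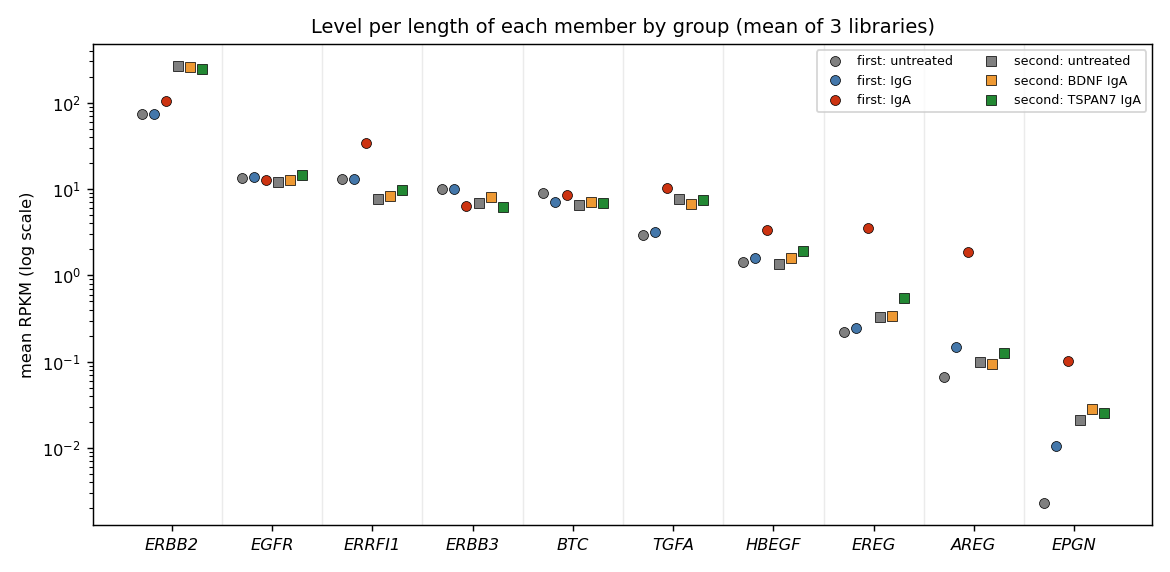
Mean RPKM of each member in the 6 groups, on a log axis, with circles for the first table and squares for the second. ERBB2 is highest throughout, and the IgA circles of ERRFI1, TGFA, HBEGF, EREG, AREG and EPGN lie above the IgG and untreated circles.

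Of the 6 ligand genes, 4 lie in 1 cluster of 546 kb on chromosome 4. By GENCODE on GRCh37 their order is EPGN (chr4:75174187-75182506, plus strand), EREG (chr4:75230862-75254466, plus), AREG (chr4:75310853-75320722, plus) and BTC (chr4:75669969-75719733, minus). TGFA lies on chromosome 2 (chr2:70674416-70781325, minus) and HBEGF on chromosome 5 (chr5:139712428-139726188, minus). AREG has a near-identical copy, AREGB (chr4:75480629-75490486), between AREG and BTC. Of 1198 windows of 75 exonic bases in AREG, the length of the reads, 32 (2.67%) occurred at a single place in GRCh37, against 98.4% to 100% for the other 9 members. Only uniquely aligned reads were counted, so AREG reads that fit both copies are missing from these counts. A read pair can also be placed by its other mate, which the windows do not take into account. Dividing AREG counts by those single-place windows alone gave 95.2 RPKM with IgA, 7.64 with IgG and 3.40 in untreated cells. Pairs placed by a mate and reads across exon junctions enter these counts but not the divisor. To that extent these values overstate the level of AREG. AREGB had 13, 2 and 3 counts over the 3 libraries of those groups.

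The 250 bases before the RefSeq start of AREG, EREG and TGFA (GRCh38.p14, coding strand) are printed here because of the 5 member ligands tested these 3 differed most between IgA and the other cells of the first table. Capitals mark a match to a motif searched for on both strands. The motifs were AP-1 (TGANTCA), CRE (TGACGTCA), the ETS core (CCGGAAGT), EGR (GCGNGGGCG), the NF-kB site and the SRF CArG box.
AREG, chr4:74444886-74445135, plus strand: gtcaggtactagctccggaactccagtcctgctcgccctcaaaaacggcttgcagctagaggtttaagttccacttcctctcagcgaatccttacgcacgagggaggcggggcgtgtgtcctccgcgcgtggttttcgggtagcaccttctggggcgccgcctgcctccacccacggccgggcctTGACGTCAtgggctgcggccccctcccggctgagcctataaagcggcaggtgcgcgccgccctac
EREG, chr4:74364895-74365144, plus strand: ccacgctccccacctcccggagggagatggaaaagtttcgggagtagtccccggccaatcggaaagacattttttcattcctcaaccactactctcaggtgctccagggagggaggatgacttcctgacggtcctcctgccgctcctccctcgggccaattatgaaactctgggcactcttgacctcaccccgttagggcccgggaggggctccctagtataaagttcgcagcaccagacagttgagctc
TGFA, first start, chr2:70553827-70554076, minus strand: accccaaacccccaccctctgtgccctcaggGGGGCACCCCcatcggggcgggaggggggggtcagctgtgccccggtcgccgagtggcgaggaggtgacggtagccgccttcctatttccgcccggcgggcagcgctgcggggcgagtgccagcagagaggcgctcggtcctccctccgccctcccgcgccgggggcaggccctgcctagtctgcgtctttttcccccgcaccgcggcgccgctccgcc
AREG held a CRE, the 8-base element bound by CREB and ATF proteins, whose first base was 65 bases before the start. Of 27305 promoters, 1 start per gene, searched from 250 bases before to 50 after the start, 1.98% hold one. TGFA held an NF-kB match 219 bases before its first start, a motif found in 5.72% of promoters, and no match at its second start. EREG, HBEGF, ERRFI1, BTC and EPGN held none of the 6 motifs in that window. Of the receptors, ERBB2 held 1 AP-1 match and 2 ETS matches. The first of 2 EGFR starts held no match and the second held 2 AP-1 matches. The AP-1 motif was found in 7.76% of promoters and the ETS core in 4.44%. These shares count 1 start per gene, whereas all listed starts of the members were searched. RefSeq promoters were matched for 9 of the 10 members. No 2 matches overlapped. A match is a run of letters and was not tested as a binding site.

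The first question was how cells given IgA of no chosen specificity differed from cells given IgG or nothing. With IgA, EREG, AREG, TGFA and HBEGF were higher, ERRFI1 was higher and ERBB3 was lower, against both IgG and untreated cells. EGFR, ERBB2 and BTC were not called. Tests used edgeR's quasi-likelihood method with Benjamini-Hochberg adjustment over all genes, and calls required an adjusted p below 0.05. Against IgG, 5 of 9 tested members were higher and 1 lower, while 12.6% of all tested genes were called higher and 11.6% lower. Against untreated cells the counts were again 5 and 1, with 12.9% and 12.1% of all genes. AREG passed the filter on low counts only through its 3 IgA libraries, so its call was favoured by the filter; without it 4 of 8 members were higher in each comparison. EPGN did not pass the filter. The median log2 fold change against IgG was 1.10 over the 9 tested members, AREG included, and -0.01 over all tested genes. The filter thus favoured that median too, and it was not computed without AREG.

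EREG, which encodes epiregulin, a ligand of EGFR and ERBB4, differed most among members well above the filter. It had 682.8, 518.6 and 914.6 normalised counts in the 3 IgA libraries, 69.1, 38.2 and 41.7 with IgG, and 48.8, 49.6 and 35.4 in untreated cells. Every IgA library was far above all 6 others, and IgG and untreated libraries overlapped. The log2 fold change was 3.82 (SE 0.28, edgeR adjusted p = 2.46e-06) against IgG and 3.98 (SE 0.28, adjusted p = 1.87e-06) against untreated cells.

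AREG encodes amphiregulin, an EGFR ligand of low affinity. Its normalised counts were 117.7, 118.9 and 85.3 with IgA, 13.1, 7.28 and 5.49 with IgG, and 1.04, 0 and 10.5 in untreated cells. The IgA libraries again did not overlap the rest. The log2 fold change was 3.61 (SE 0.69, edgeR adjusted p = 0.00266) against IgG and 4.70 (SE 0.74, adjusted p = 7.83e-04) against untreated cells, the latter from 14 counts in all in the untreated libraries. Of these, 13 came from untreated replicate 3, and with 1 library left out the value ranged from 4.11 to 7.50, the highest without that replicate. EPGN, the gene of epigen, had 6, 15 and 9 counts in the IgA libraries, 4, 0 and 0 with IgG, and 0, 0 and 1 in untreated cells. Scaled for depth, its summed counts with IgA were 9.15 times those with IgG (95% counting interval 3.22 to 35.7) and 40.3 times those in untreated cells (6.70 to 1645), and these intervals cover counting error alone. EPGN was called against untreated cells by DESeq2, without the filter and in 4 of the fits that left out a library, and against IgG in 1 such fit. It reached the filter's count minimum in 2 IgA libraries and in 0 IgG or untreated libraries. Fits that left out a library could thus test EPGN only through IgA libraries, so its calls in them were favoured by the filter.

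TGFA, the gene of transforming growth factor-α, was already well expressed without IgA. Its normalised counts were 1565, 1708 and 2050 with IgA, 614.1, 509.9 and 527.0 with IgG, and 538.9, 535.6 and 431.8 in untreated cells. All 3 IgA libraries were above every other library, and the log2 fold change was 1.69 (SE 0.14, edgeR adjusted p = 9.20e-06) against IgG and 1.82 (SE 0.14, adjusted p = 4.26e-06) against untreated cells. HBEGF, a heparin-binding ligand of EGFR and ERBB4, had 350.9, 386.7 and 333.3 normalised counts with IgA, 204.4, 142.0 and 152.6 with IgG, and 144.3, 171.5 and 130.5 in untreated cells. Its groups did not overlap either, and its log2 fold change was 1.10 (SE 0.19, edgeR adjusted p = 0.0016) against IgG and 1.26 (SE 0.19, adjusted p = 6.16e-04) against untreated cells.

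BTC, which encodes betacellulin and lies in the same cluster, had 885.8, 822.4 and 679.2 normalised counts with IgA, 596.4, 696.5 and 702.7 with IgG, and 832.7, 913.9 and 787.9 in untreated cells. The IgA libraries overlapped both other groups, and the log2 fold changes of 0.26 (SE 0.13) against IgG and -0.08 (SE 0.13) against untreated cells were not called. Without IgA replicate 3 the first of these was 0.36 and passed the threshold.

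**Figure D2:**
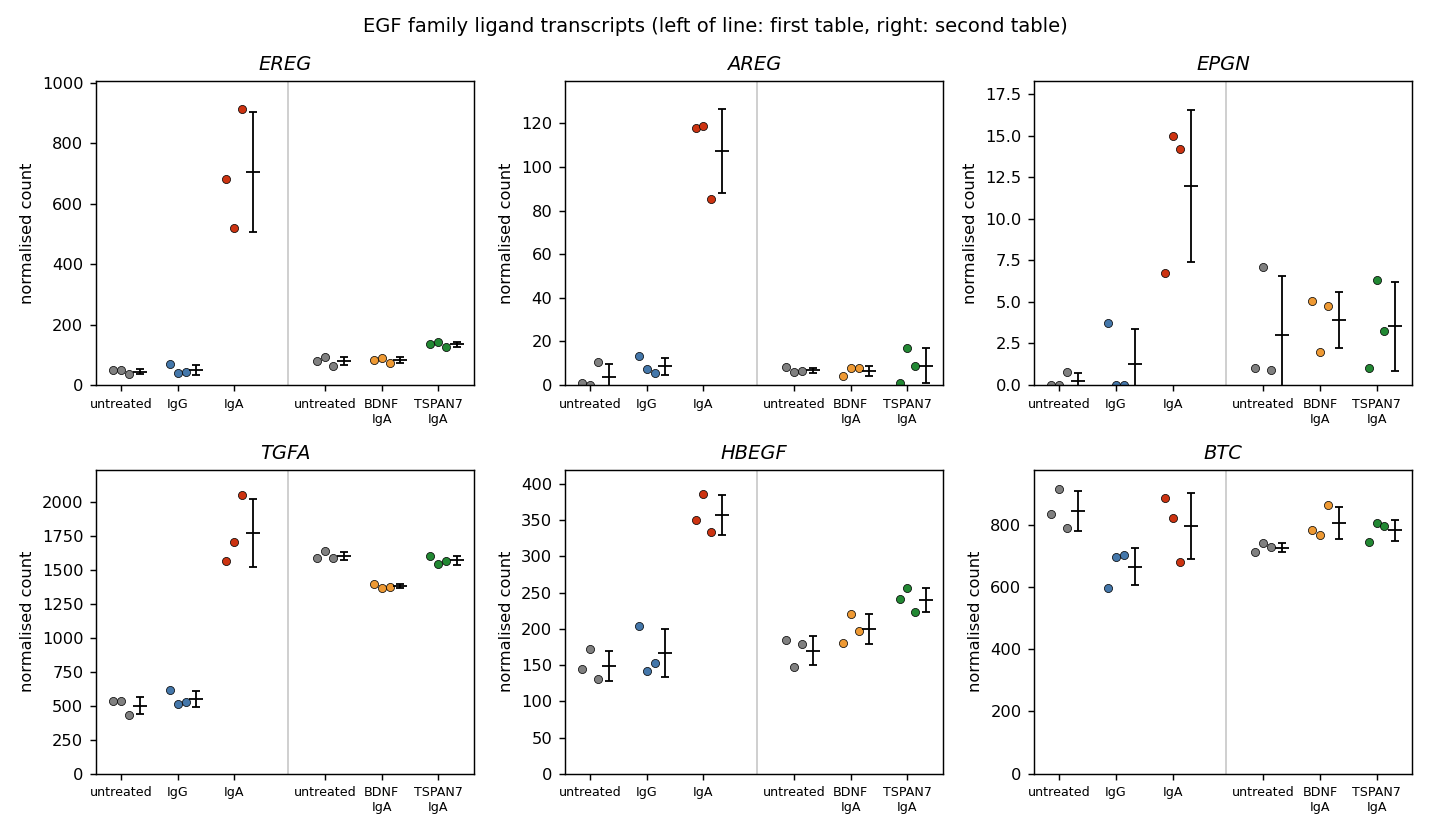
Normalised counts of the 6 ligand genes in each library (points), with the group mean and SD beside them (bars below 0 are not drawn), for the first table left of the line and the second right of it. For EREG, AREG, TGFA and HBEGF the 3 IgA points lie above all IgG and untreated points, whereas the BTC points of IgA overlap those of IgG and of untreated cells.

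The receptors moved less. EGFR had between 6817 and 7336 normalised counts with IgA, 7401 to 7966 with IgG and 7214 to 8134 in untreated cells, and its log2 fold changes of -0.10 (SE 0.09) and -0.08 (SE 0.09) were not called. ERBB3 had 2589, 2958 and 2249 normalised counts with IgA, 3586, 3942 and 4761 with IgG, and 4090, 3842 and 4482 in untreated cells. All 3 IgA libraries were below the other 6, and the log2 fold change was -0.66 (SE 0.13, edgeR adjusted p = 0.0033) against IgG and -0.67 (SE 0.13, adjusted p = 0.00267) against untreated cells.

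ERBB2 was uneven among the IgA libraries, at 35933, 23430 and 54836 normalised counts, while IgG libraries held 23692, 29225 and 27052 and untreated libraries 27729, 26882 and 26994. IgA replicates 1 and 3 were above all other libraries and replicate 2 was below all of them. Neither log2 fold change passed, at 0.51 (SE 0.22, edgeR adjusted p = 0.104) against IgG and 0.48 (SE 0.22, adjusted p = 0.122) against untreated cells. Both passed without the filter on low counts, at 0.50 and 0.47, and without IgA replicate 2, at 0.76 and 0.74, whereas without IgA replicate 3, the library rich in mitochondrial reads, they were 0.15 and 0.12 and did not pass.

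ERRFI1, the feedback inhibitor, had 5488, 4905 and 4657 normalised counts with IgA, 1790, 1729 and 2188 with IgG, and 1746, 1836 and 2126 in untreated cells. Its IgA libraries were more than 2 times as high as any other library, and the log2 fold change was 1.40 (SE 0.12) against IgG and against untreated cells (edgeR adjusted p = 1.37e-05 and 1.22e-05). The calls of EREG, AREG, TGFA, HBEGF, ERRFI1 and ERBB3 in both comparisons held under each of the alternatives run, including the fits without IgA replicate 3. The plot of counts for the receptors and ERRFI1 shows ERRFI1 and ERBB3 apart from the other groups in opposite directions.

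**Figure D3:**
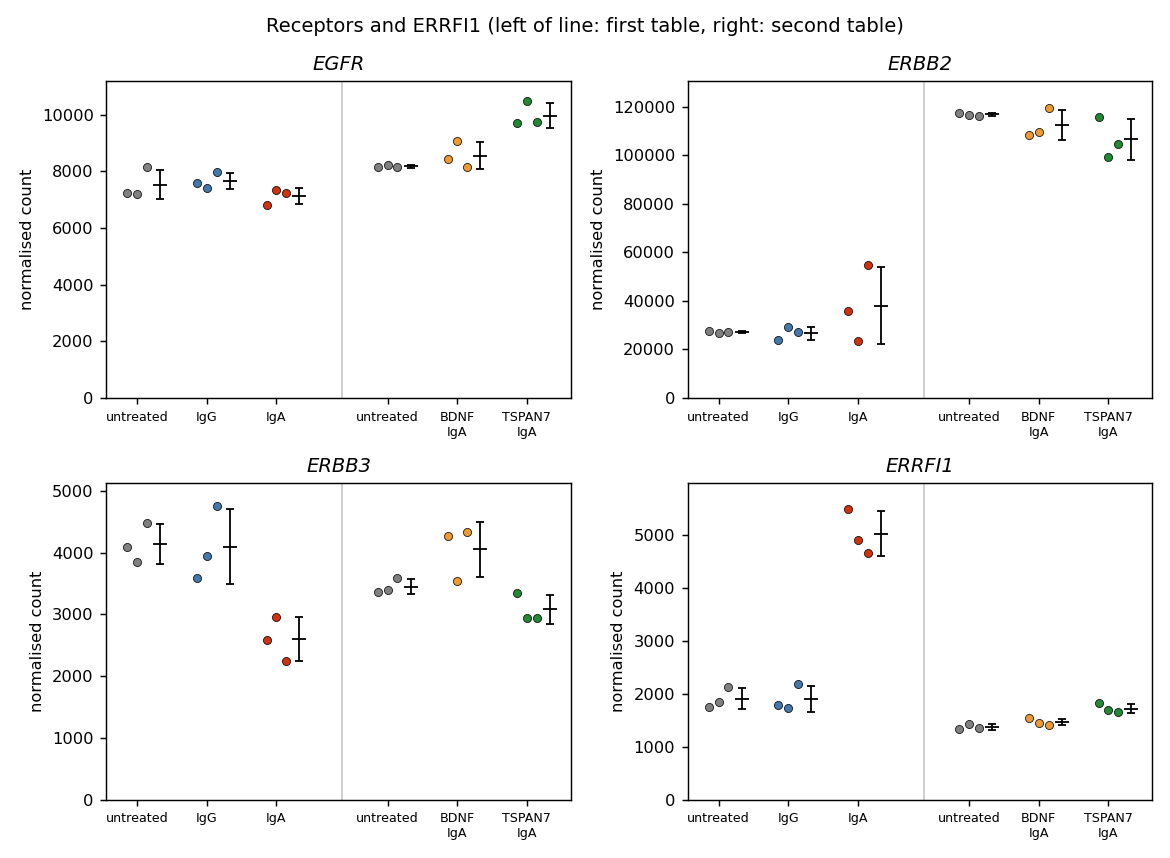
Normalised counts of EGFR, ERBB2, ERBB3 and ERRFI1 in each library (points), with the group mean and SD, for the first table left of the line and the second right of it. The 3 IgA points are highest for ERRFI1 and lowest for ERBB3, those of ERBB2 range from 23430 to 54836, and those of EGFR lie near the other groups.

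IgG against untreated cells asked whether an antibody of the other class gave the same differences. No member was called, and 0% of all genes were called higher and 0% lower by edgeR. At an unadjusted p under 0.05 stood 1 member, BTC (log2 fold change -0.35, SE 0.13), and DESeq2 and voom with quality weights also called 0 members. The members' log2 fold changes ranged up to 1.09 (SE 0.82) for AREG, which had 27 counts over the IgG libraries and 14 over the untreated ones and ranged from 0.51 to 3.88 with 1 library left out, the highest without untreated replicate 3. EREG (SE 0.29) and HBEGF (SE 0.19) were both at 0.16 and TGFA (SE 0.14) at 0.13. A p that misses the threshold does not show that the groups were alike.

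**Figure D4:**
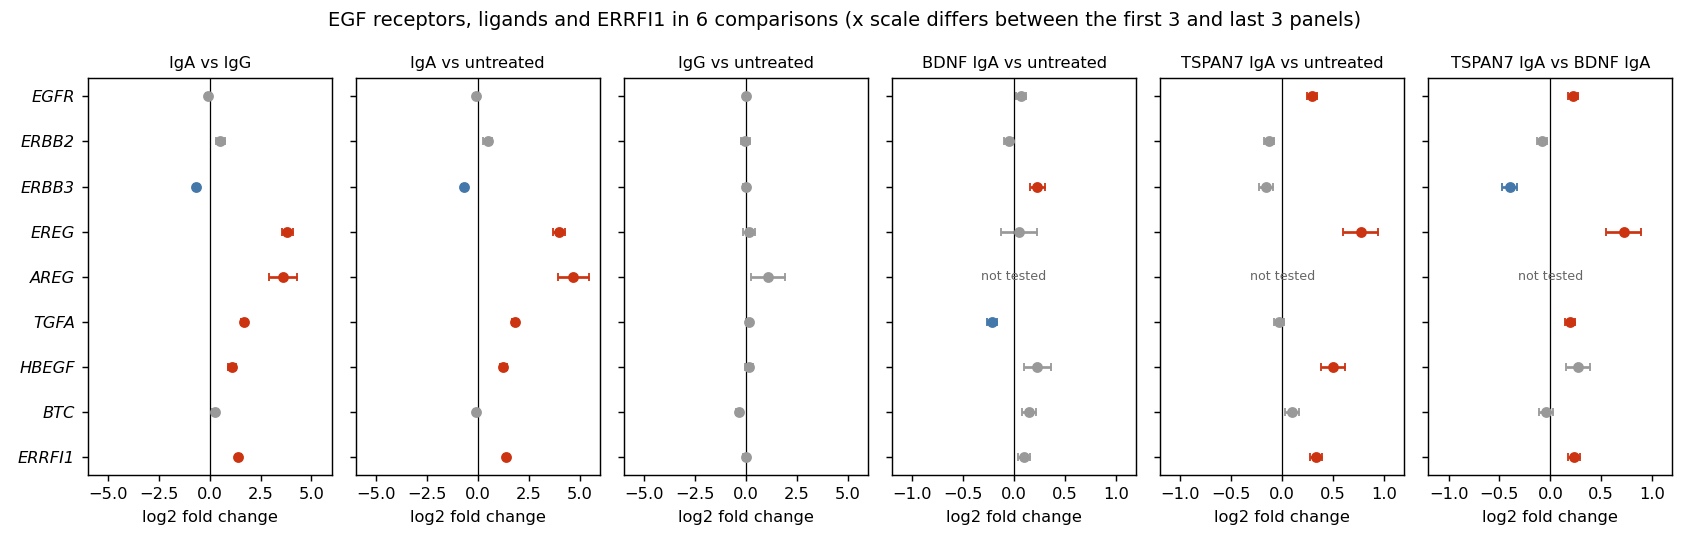
Log2 fold change (x) with its standard error for the 9 members tested in at least 1 table, in the 6 comparisons, with red for higher, blue for lower and grey for not called. EREG reaches 3.98 with IgA and 0.77 with TSPAN7 IgA, and no point is coloured for IgG. The x axis of the last 3 panels is narrower than that of the first 3.

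The second table set cells given IgA against a named antigen beside untreated cells. It held no cells given IgA of no chosen specificity. Against untreated cells, a difference from antigen binding and one from IgA as such therefore cannot be told apart. TSPAN7 is a tetraspanin of the cell surface and BDNF a secreted neurotrophin. AREG did not pass the filter there, with 20 counts over the BDNF IgA libraries, 25 over the TSPAN7 IgA libraries and 21 over the untreated ones, and EPGN had 12, 10 and 9. So 8 members were tested. With TSPAN7 IgA, 4 of them were higher than in untreated cells (EGFR, EREG, HBEGF and ERRFI1) and 0 lower, while 4.46% of all genes were higher and 4.08% lower. At an unadjusted p under 0.05, ERBB2 (log2 fold change -0.13) and ERBB3 (-0.16) were the lower members, and both were called by voom, without the filter and with only the 6 libraries compared.

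EREG had 134.8, 141.2 and 126.7 normalised counts with TSPAN7 IgA, 83.9, 89.9 and 71.3 with BDNF IgA, and 81.0, 92.0 and 64.1 in untreated cells. The TSPAN7 IgA libraries were above the other 6, which overlapped each other. Its log2 fold change was 0.77 (SE 0.17, edgeR adjusted p = 0.0059) against untreated cells. HBEGF was at 241.7, 256.1 and 223.0 normalised counts with TSPAN7 IgA and at 184.4, 146.7 and 178.8 in untreated cells, and the log2 fold change was 0.50 (SE 0.12, edgeR adjusted p = 0.0143). That call was lost without TSPAN7 IgA replicate 2 (0.45) or untreated replicate 2 (0.41).

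EGFR itself was at 9690, 10468 and 9735 normalised counts with TSPAN7 IgA, at 8428, 9072 and 8141 with BDNF IgA and at 8134, 8237 and 8138 in untreated cells. Against untreated cells its log2 fold change was 0.29 (SE 0.05, edgeR adjusted p = 3.64e-04), and the TSPAN7 IgA libraries stood above all others. ERRFI1 had 1822, 1692 and 1649 normalised counts with TSPAN7 IgA and 1333, 1436 and 1346 in untreated cells, and the log2 fold change was 0.33 (SE 0.06, edgeR adjusted p = 8.18e-04). TGFA (-0.03, SE 0.05) and BTC (0.10, SE 0.07) were not called.

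With BDNF IgA, 1 of 8 members was higher than in untreated cells and 1 lower, while 4.49% of all genes were higher and 3.18% lower. TGFA had 1396, 1368 and 1373 normalised counts with BDNF IgA and 1587, 1637 and 1587 in untreated cells, with no overlap, and the log2 fold change was -0.22 (SE 0.05, edgeR adjusted p = 0.0106). ERBB3 had 4272, 3542 and 4340 normalised counts against 3363, 3393 and 3595, so that BDNF IgA replicate 2 fell within the untreated range, and its log2 fold change was 0.23 (SE 0.07, edgeR adjusted p = 0.0322). The TGFA call was lost without untreated replicate 2 (-0.20), and the ERBB3 call without BDNF IgA replicate 1 (0.19), BDNF IgA replicate 3 (0.18), untreated replicate 1 (0.21) or untreated replicate 2 (0.22).

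TSPAN7 IgA was also set against BDNF IgA, the 2 antibodies being of 1 class and used at 1 dose. EGFR (log2 fold change 0.22, SE 0.05), EREG (0.72, SE 0.17), TGFA (0.19, SE 0.05) and ERRFI1 (0.23, SE 0.06) were higher with TSPAN7 IgA and ERBB3 (-0.40, SE 0.07) was lower, 4 and 1 of 8 members, where 3.42% of all genes were higher and 4.5% lower. ERBB3 had 3348, 2941 and 2949 normalised counts with TSPAN7 IgA, below all 3 BDNF IgA libraries, and its call (edgeR adjusted p = 7.32e-04) held under each alternative. The 4 higher calls did not all hold. Without TSPAN7 IgA replicate 2 there were 0, without BDNF IgA replicate 3 there was 1 and without TSPAN7 IgA replicate 1 there were 2. Calls over all genes, in both directions, numbered 1484 and ranged from 482 to 3276 with 1 library left out. Whether members lost calls more often than other genes was not tested. HBEGF (0.27, SE 0.12) was not called, although its TSPAN7 IgA libraries were all above those with BDNF IgA. The comparisons within a table share libraries, so their values are not independent of each other.

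Other genes of the pathway were described from lists of 59 genes in all, of which 58 were tested. Against IgG, 8 (13.8%) were higher and 7 (12.1%) lower with IgA, beside 12.6% and 11.6% of all genes, with a median log2 fold change of 0.10. Against untreated cells 10 (17.2%) were higher and 7 (12.1%) lower, where all genes gave 12.9% and 12.1%. Scaled by library size alone, which lowered the median of all genes by 0.23 against IgG and by 0.21 against untreated cells on the log2 scale, these splits became 3 higher and 14 lower, and 5 higher and 14 lower. IgG against untreated cells gave 0 calls in edgeR and 0 at an unadjusted p under 0.05. Against untreated cells BDNF IgA gave 7 (12.1%) higher and 0 lower beside 4.49% and 3.18% of all genes, and TSPAN7 IgA gave 7 (12.1%) higher and 2 (3.45%) lower beside 4.46% and 4.08%. TSPAN7 IgA against BDNF IgA gave 1 (1.72%) higher and 7 (12.1%) lower beside 3.42% and 4.5%. These shares describe the lists and carry no test.

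Among the other receptor and ligand genes, NRG1, which encodes neuregulin ligands of ERBB3 and ERBB4, was called in the same 4 comparisons as EREG. It had 3502, 3251 and 4110 normalised counts with IgA, 1441, 976.0 and 720.3 with IgG, and 789.1, 919.8 and 754.1 in untreated cells. The log2 fold change of NRG1 was 1.79 (SE 0.20, edgeR adjusted p = 7.96e-05) against IgG and 2.14 (SE 0.20, adjusted p = 2.32e-05) against untreated cells, with no overlap. In the second table NRG1 was higher with TSPAN7 IgA than in untreated cells (0.60, SE 0.11) and than with BDNF IgA (0.71, SE 0.11). NRG4, another ERBB4 ligand, was lower with IgA than with IgG (-0.92, SE 0.20), at 109.0 to 116.6 against 203.9 to 230.6 normalised counts; against untreated cells its log2 fold change of -0.57 (SE 0.20) was not called. ERBB4, the remaining receptor, had a log2 fold change of 0.03 (SE 0.13) against IgG, was higher with BDNF IgA than in untreated cells (0.19, SE 0.05) and lower in TSPAN7 IgA cells than in BDNF IgA cells (-0.27, SE 0.05). EGF was near 0 with IgA (-0.10, SE 0.33 against IgG), NRG2 was at -0.07 (SE 0.21), neither was called in any comparison, and NRG3 had 5 counts in 1 IgA library and 0 in the other 17.

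Of 12 sheddase and iRhom genes, which govern ligand release, 1 (8.33%) was higher with IgA than with IgG (ADAM9, log2 fold change 0.40, SE 0.09) and 1 lower (FRMD8, an iRhom partner, -0.82, SE 0.21), beside 12.6% and 11.6% of all genes. Against untreated cells ADAM9 (0.37, SE 0.09) was higher, and RHBDL2 (-0.84, SE 0.25) and FRMD8 (-0.75, SE 0.21) were lower. With TSPAN7 IgA, ADAM10 (0.21, SE 0.04) and ADAM9 (0.18, SE 0.04) were higher. With BDNF IgA 3 (25%) were higher, beside 4.49% of all genes. Among the 3 were ADAM10 (0.22, SE 0.04) and the metalloproteinase inhibitor TIMP3 (0.25, SE 0.06). TSPAN7 IgA against BDNF IgA had 2 (16.7%) lower genes, beside 4.5% of all genes. They were TIMP3 (-0.30, SE 0.06) and ADAM19 (-0.22, SE 0.06).

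Of 20 adaptor and proximal signalling genes, 4 (20%) were higher and 4 (20%) lower with IgA than with IgG, beside 12.6% and 11.6% of all genes. The exchange factor VAV3 (log2 fold change -0.94, SE 0.15) and the adaptor GRB7 (0.80, SE 0.20), whose gene neighbours ERBB2, differed most. GRB7 was uneven, at 1634 ± 527.1 normalised counts (SD) with IgA and 938.2 ± 174.3 with IgG, and these libraries overlapped. Its value without IgA replicate 3 is not given here. Against untreated cells 5 (25%) were higher and 4 (20%) lower, beside 12.9% and 12.1% of all genes. VAV3 (-1.01, SE 0.15) and EPS8, an EGFR substrate (0.93, SE 0.19), led these calls. VAV3 was also lower with TSPAN7 IgA (-0.21, SE 0.05), as was GAB2 (-0.30, SE 0.06). In that comparison 2 (10%) of the 20 genes were higher and 2 (10%) lower, beside 4.46% and 4.08% of all genes. With BDNF IgA only NCK1 of this list was called (0.20, SE 0.05), 5% of the list beside 4.49% of all genes called higher. With TSPAN7 IgA against BDNF IgA 3 (15%) were lower, beside 4.5% of all genes, led by GRB7 (-0.33, SE 0.08) and GAB2 (-0.28, SE 0.06).

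Of 21 genes for receptor down-regulation and traffic, 2 (9.52%) were higher and 1 (4.76%) lower with IgA than with IgG. The shares of all genes were 12.6% and 11.6%. Against untreated cells 3 (14.3%) were higher and 1 (4.76%) lower, beside 12.9% and 12.1% of all genes. The phosphatase gene PTPRJ was at 0.67 (SE 0.12) in both and SOCS4 at -0.70 (SE 0.09) and -0.73 (SE 0.09). PTPRJ (0.21, SE 0.05) and the ubiquitin ligase CBL (0.19, SE 0.05) were higher with TSPAN7 IgA. CBLC (0.49, SE 0.10) and LRIG2 (0.23, SE 0.06) were higher with BDNF IgA, and LRIG1, a negative regulator of the receptors, was lower in TSPAN7 IgA than in BDNF IgA cells (-0.19, SE 0.06).

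Genes beside the chromosome 4 cluster were examined up to 250 kb away. CXCL2, a neutrophil chemokine which lies at -211.4 kb from the start of EPGN, had a log2 fold change with IgA of 3.27 (edgeR adjusted p = 2.14e-06) against IgG and 3.38 (adjusted p = 1.64e-06) against untreated cells. MTHFD2L, between CXCL2 and EPGN, was at 0.68 and 0.55, both called. PARM1, beyond BTC, was at 0.20 and 0.23 and was not called. With TSPAN7 IgA against untreated cells CXCL2 (0.90) and MTHFD2L (0.28) were higher and PARM1 (-0.55) lower. With BDNF IgA against untreated cells CXCL2 was higher as well (0.36, edgeR adjusted p = 0.00585), and it was higher with TSPAN7 IgA than with BDNF IgA (0.53).

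**Figure D5:**
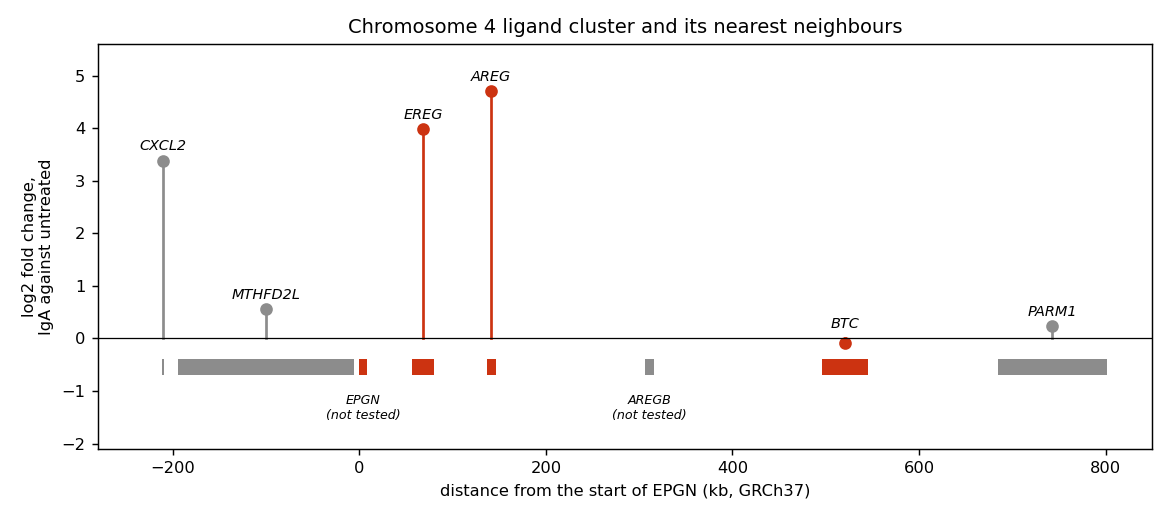
Log2 fold change of IgA against untreated cells (y) for genes of the chromosome 4 cluster, placed by distance from the start of EPGN in kb (x), with red for members, grey for other genes and bars for gene extent. EREG (3.98) and AREG (4.70) stand high, as does CXCL2 (3.38) to the left, while MTHFD2L (0.55), BTC (-0.08) and PARM1 (0.23) are low, and EPGN and AREGB were not tested. Genes that carry only a clone name, such as AC142293.3, are not drawn.

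Over the 9 libraries of each table, the 3 genes whose log2 expression was most like that of EREG in both, of 13347 ranked, were CCND1 (Pearson r 0.973 in each table), GPRC5A (0.976 and 0.957) and ACTB (0.948 and 0.955). Among members ERRFI1 had r of 0.955 and 0.904 with EREG, HBEGF 0.966 and 0.689, TGFA 0.994 and 0.324, and BTC 0.118 and 0.116. ERBB3 ran opposite, at -0.954 and -0.719, and EGFR was at -0.608 in the first table and 0.926 in the second. These libraries fall into groups and share their scaling, so the coefficients describe the group pattern and carry no test. AREG could not be ranked, since it was tested in the first table only.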

How the data were processed

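RNA from 18 OVCAR3 libraries (RNeasy Plus micro kit, DNase, Ovation Human FFPE RNA-Seq kit, NextSeq 550, 75-base paired reads) was sequenced. Trimming by the authors used cutadapt and alignment used STAR on GRCh37, after which reads with 1 alignment were counted per gene. The methods name featureCounts, and the submitters' processing notes name bcl2fastq 2.20.0.422, cutadapt 1.8.1, HTSeq 0.6.1 and hg19. The deposited values are raw counts, and strand use was not stated, so overlapping and antisense genes may share reads. The authors tested them with DESeq2. The sources give 24 h of treatment, except for descriptions of supplementary files, which give a shorter time. Of 57820 rows in the second table, 2055 exact repeats (1.99% to 2.46% of a library's counts) were dropped.

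Each table was fitted with all its 9 libraries in edgeR 4.0.16 (R 4.3.3): TMM, filterByExpr, quasi-likelihood F test, two-sided, Benjamini-Hochberg over all genes tested (18012 and 18732). Standard errors are |log2 fold change| over √F. Normalised counts are set to a table's mean TMM-scaled library size. RPKM used the union of GENCODE exons on GRCh37, which is a newer annotation than that of the symbols. Pearson r used log2 CPM with a prior count of 2. Alternatives were DESeq2 1.42.0, voom with quality weights (limma 3.58.1), other scalings and filters, only the 6 libraries compared, no mitochondrial or ribosomal RNA genes, an adjusted p under 0.01, a replicate block and leaving out each replicate. The count of single-place windows, and levels per such window, were alternatives chosen after seeing the data. The members, lists and rules were chosen with earlier results of these data known. All 10 members were named. In each other list, the 2 called genes with the largest absolute log2 fold change and at least 50 normalised counts in a group were named. So were all other ERBB receptor and ligand genes, neighbours within 250 kb and the 3 genes most like EREG. Neighbours that carry only a clone name, such as AC142293.3, were left out. On simulated data with 200 changed genes the fit recovered 90.5% for IgA against IgG (17605 genes tested, 6.22% of calls false) and 96.5% for BDNF IgA against untreated cells (18530 genes, 2.53% false). The planted changes were of equal size, larger than any member change called in the second table. All genes of a table shared a fixed dispersion, and no library was made to stand apart. Recovery of smaller changes was not tested.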

Additional observations from a re-analysis of the deposited data

How the results depend on the processing

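Over all members and comparisons, 963 values kept their direction and side of the threshold, 26 lost a call, 13 gained one and 20 changed sign, none of the last in a called value. Sign changes outside the fits that left out a library were ERBB3 for IgG against untreated cells (0.01 with library size alone) and ERRFI1 in the same comparison (0.004 with upper-quartile scaling, 0.02 with library size alone, 0.0005 with a CPM of at least 1 in 3 libraries). With 1 library left out, IgG against untreated cells ranged from -0.01 to 0.08 for EGFR, from -0.10 to 0.05 for ERBB2, from -0.14 to 0.07 for ERBB3, from -0.15 to 0.33 for EREG, from -0.01 to 0.28 for HBEGF and from -0.11 to 0.08 for ERRFI1 (log2 fold changes). AREG kept its sign there but ranged from 0.51 to 3.88, and from 4.11 to 7.50 for IgA against untreated cells. In the same way BTC ranged from -0.17 to 0.01 for IgA against untreated cells and from -0.07 to 0.01 for TSPAN7 IgA against BDNF IgA, and EREG from -0.08 to 0.17 for BDNF IgA against untreated cells.

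In the first table the count of higher members was 5 and rose to 6 for IgA against IgG without the filter and in fits that left out a library, and for IgA against untreated cells to 6 with DESeq2 and in such fits and to 7 without the filter; the added members were ERBB2, BTC or EPGN. In fits that left out a library, EPGN could pass the filter only through IgA libraries. Counts moved by over 1.5 times in the second table only. At an adjusted p under 0.01, BDNF IgA had 0 higher and 0 lower members against untreated cells, and TSPAN7 IgA had 1 higher against BDNF IgA. TSPAN7 IgA against untreated cells had 2 lower members with voom, without the filter and with only the 6 libraries compared. With 1 library left out, BDNF IgA against untreated cells had 0 to 1 higher and 0 to 1 lower members, TSPAN7 IgA against untreated cells 0 to 1 lower, and TSPAN7 IgA against BDNF IgA 0 to 4 higher. Calls over all genes moved as well. With 1 library left out they ranged from 734 to 2798 for BDNF IgA and from 757 to 2304 for TSPAN7 IgA, each against untreated cells. For TSPAN7 IgA against BDNF IgA they ranged from 482 to 3276. Shares of all genes called higher or lower were not computed for each alternative. The cause of these shifts was not tested.

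Counts of the other pathway genes moved more. For IgA against IgG they were 3 higher and 14 lower with library size alone, and 5 higher and 4 lower at an adjusted p under 0.01. For IgA against untreated cells they were 5 higher and 14 lower with library size alone, 12 lower with upper-quartile scaling, 3 lower at an adjusted p under 0.01 and 4 to 9 lower with 1 library left out. For BDNF IgA against untreated cells they were 2 higher at an adjusted p under 0.01 and 2 to 10 higher with 1 library left out, and 1 lower with upper-quartile scaling, DESeq2 or a CPM of at least 1, 2 lower with voom and 0 to 3 lower with 1 library left out. For TSPAN7 IgA against untreated cells they were 4 higher at an adjusted p under 0.01 and 3 to 7 higher with 1 library left out. For TSPAN7 IgA against BDNF IgA they were 2 higher with DESeq2, 4 higher with voom and 1 to 5 higher with 1 library left out, and 4 lower with only the 6 libraries compared, 3 lower at an adjusted p under 0.01 and 3 to 10 lower with 1 library left out.

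Over all genes, calls for IgA against IgG numbered 4360 and ranged from 2041 to 5286 over the alternatives, and those for IgA against untreated cells numbered 4503 and ranged from 2130 to 5229. BDNF IgA against untreated cells had 1437 (638 to 2798), TSPAN7 IgA against untreated cells 1600 (757 to 2442) and TSPAN7 IgA against BDNF IgA 1484 (482 to 3276), and IgG against untreated cells had 0, or 2 without the filter. With the replicate block the members called were 5 higher and 1 lower for IgA against IgG, and no member's call changed in any comparison; 1 other pathway gene was then lower for BDNF IgA against untreated cells. Calls over all genes with the block numbered 4340, 4428, 0, 1655, 1759 and 1728 for IgA against IgG, IgA and IgG against untreated cells, BDNF IgA and TSPAN7 IgA against untreated cells, and TSPAN7 IgA against BDNF IgA. Deviations of same-numbered libraries from their group means correlated at r of -0.07 to 0.25, over 0.1 in 1 of 18 pairs, so the numbers were not taken as pairs; all 6 libraries correlated best with their own number for TSPAN7 IgA against untreated cells, and between 0 and 4 of 6 in the other comparisons. AREG could not be fitted for IgG against untreated cells with only those 6 libraries, since it did not pass the filter. Depth limits AREG, AREGB and EPGN, and 3 libraries a group limit small changes. Levels moved with the longest transcript in place of all exons in 42 of 60 cases, since length enters them directly.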
